A study of Mus musculus with 6 samples.

Results

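Expression of 9 genes of cholesterol efflux and of the liver X receptor (LXR) pathway was measured in single liver cells of mice with nonalcoholic steatohepatitis (NASH) that received vehicle or ginkgetin. The 9 genes were the receptors Nr1h3 (LXRα) and Nr1h2 (LXRβ), the efflux transporters Abca1 and Abcg1, the lipoprotein genes Apoe, Pltp and Lpl, and the LXR targets Mylip and Lpcat3. They were chosen by symbol, and all 9 were found among the 19349 genes listed for every library. Male C57BL/6J mice ate a high-fat diet for 24 weeks from 8 weeks of age. During the last 8 weeks they were given either vehicle (DMSO) or ginkgetin, a biflavone of Ginkgo biloba leaves, at 10 mg/kg/day by the intragastric route. Both groups therefore carried the same diet, and no library from healthy mice on a normal diet was analysed here. Each group had 3 libraries, prepared from liver non-parenchymal cells (LNPC) and read on a droplet platform that counts unique molecular identifiers (UMIs). The labels number the libraries without saying how many mice each one holds, so p-values measure the spread between these libraries.

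LXRs are nuclear receptors that bind oxysterols and, paired with a retinoid X receptor, switch on genes that carry cholesterol out of the cell. ABCA1 loads cholesterol onto lipid-poor apolipoproteins and ABCG1 onto high-density lipoprotein, apolipoprotein E is a lipoprotein ligand that hepatic macrophages also secrete, and PLTP moves phospholipid between lipoproteins. Lipoprotein lipase cuts triglyceride in lipoproteins, MYLIP (IDOL) is a ubiquitin ligase that limits lipoprotein uptake, and LPCAT3 builds polyunsaturated phospholipids in membranes. In the liver this programme is best known from macrophages that take up lipid.

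After filtering, 27544 of 33168 barcodes were kept, with 11766342 to 42746627 UMIs per library and a median of 2483 to 8412 UMIs per cell. Cells were clustered without the 9 genes and without the other pathway genes described here, classes were named from marker genes, and 4218 cells stayed unnamed. The macrophage-like class held 1161, 690 and 1087 cells in the vehicle libraries, in the order of their replicate numbers, and 102, 238 and 550 cells in the ginkgetin libraries. Median UMIs per macrophage-like cell were 9388, 7518 and 16319 in vehicle and 2319, 2061 and 2347 in ginkgetin. Replicate 3 of both groups carried a set of cell barcodes apart from replicates 1 and 2, with 10 to 85 barcodes shared by pairs of libraries within a set and at most 1 across sets. Levels are given in CPM, the UMIs of a gene in a class and library divided by all UMIs of that class and library and scaled to the same total in each.

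All 7 macrophage markers were detected in every library of the macrophage-like class. Its Kupffer-like part, which carried Clec4f, Timd4 and Vsig4, did not sit in the same clusters in both groups. Sub-clusters 1 and 7 held 82.0%, 93.9% and 93.7% of ginkgetin Kupffer-like cells and 0.141%, 0.461% and 0.253% of vehicle ones, whereas sub-clusters 3 to 6 held 95.8%, 97.9% and 95.5% of vehicle Kupffer-like cells. The Trem2 Gpnmb macrophage-like part matched its name less well in ginkgetin. It held 13, 40 and 37 ginkgetin cells against 433, 253 and 680 vehicle cells, its 7 markers summed to 1187, 990 and 2439 CPM in ginkgetin against 5977, 6231 and 7161 in vehicle, and Gpnmb was at 0 in ginkgetin replicate 1. Markers of endothelial cells also moved with the groups. All 8 were detected in macrophage-like cells of every library, and they summed to 187 to 214 CPM in vehicle and 909 to 1621 in ginkgetin. Their part in the differences below was not tested beyond the values without cells that held 3 or more UMIs of them. In endothelial-like cells, the 8 endothelial markers summed to 8905 to 11980 CPM in vehicle and 13400 to 18580 in ginkgetin.

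Promoters of Abca1 and Apoe are shown because these were the members with the largest called differences in endothelial-like and macrophage-like cells. In the RefSeq table of GRCm38.p6, windows from 250 bases before to 50 after a transcription start were held for 7 of the 9 genes, not for Abcg1 and Lpl. The LXR element DR4, AGGTCA repeated after 4 free bases (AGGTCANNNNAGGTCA), was searched on both strands. Capitals mark the stretch with the most letters in common. Abca1 (chr4:53030787-53159895) and Apoe (chr7:19696109-19699188) are both annotated on the minus strand of GRCm38. The Abca1 window lies at chr4:53159846-53160145 on the minus strand, across the annotated 5′ end of the gene, and its best stretch shared 9 of 12 letters.
Abca1: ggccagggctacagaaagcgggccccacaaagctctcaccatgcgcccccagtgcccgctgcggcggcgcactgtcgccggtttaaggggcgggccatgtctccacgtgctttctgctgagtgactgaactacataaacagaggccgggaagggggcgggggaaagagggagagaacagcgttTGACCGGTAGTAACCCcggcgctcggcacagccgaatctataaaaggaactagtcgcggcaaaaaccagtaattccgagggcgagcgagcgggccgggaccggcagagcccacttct
Of all 32851 windows, 21.9% held a stretch with as many. The Apoe window that spans the annotated 5′ end of the gene lies at chr7:19699139-19699438 on the minus strand, and its best stretch shared 8 letters.
Apoe: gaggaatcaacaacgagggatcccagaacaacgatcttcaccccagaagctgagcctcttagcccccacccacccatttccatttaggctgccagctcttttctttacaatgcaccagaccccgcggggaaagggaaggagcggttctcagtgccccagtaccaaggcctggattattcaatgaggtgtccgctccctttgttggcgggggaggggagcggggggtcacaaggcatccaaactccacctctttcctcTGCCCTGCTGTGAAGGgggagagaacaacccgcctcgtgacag
At least 8 letters were shared in 76.9% of all windows, among them the best of Nr1h3, Nr1h2 and Lpcat3, and at least 7 in 99.8%, among them Pltp and Mylip. The full element was present in 5 windows of all (0.0152%) and in none of these genes. These are letter matches only, and elements outside these windows were not searched.

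In vehicle, Apoe, Lpl, Pltp and Nr1h3 were highest in macrophages, Mylip was highest in endothelial-like cells, and Lpcat3 was highest in cholangiocyte-like cells. The values below are levels. Mean Apoe was 59360 ± 13890 (SD, n = 3) in Trem2 Gpnmb macrophage-like cells and 45600 ± 1213 in Kupffer-like cells, with no overlap between their libraries, and 15120 ± 1971 in cholangiocyte-like cells, the next class. Lpl was at 2277 ± 239 in Trem2 Gpnmb macrophage-like cells and 1917 ± 408 in Kupffer-like cells, and these neighbours overlapped. Pltp was at 1075 ± 251 in Kupffer-like cells, above all libraries of Trem2 Gpnmb macrophage-like cells, where it was 433 ± 121. Plasmacytoid dendritic-like cells held Pltp at 418 ± 17.8, overlapping the latter.

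The receptor Nr1h3 followed the macrophage subsets, and Nr1h2 did not. In vehicle, Nr1h3 was at 406 ± 75.9 CPM in Kupffer-like cells, 192 ± 22.1 in Trem2 Gpnmb macrophage-like cells and 103 ± 25.6 in monocyte-like cells, each apart from the class before it. Nr1h2 ranged without a gap over its leading classes, from 74.6 ± 6.38 in fibroblast-like cells downwards. The transporters were shared between macrophages and endothelium. Abca1 stood at 244 ± 80.8 in Kupffer-like, 214 ± 86.0 in endothelial-like and 170 ± 74.2 in Trem2 Gpnmb macrophage-like cells, all overlapping, and Abcg1 at 198 ± 47.1, 127 ± 39.6 and 195 ± 17.1 in the same classes. Mylip was at 555 ± 39.1 in endothelial-like cells, and the next class, B cell-like cells, stood apart at 80.1 ± 24.3. Lpcat3 was at 88.9 ± 14.9 in cholangiocyte-like cells and 40.0 ± 11.9 in endothelial-like cells, also apart. Classes were cut from the same cells, so these orders are descriptions and were not tested.

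**Figure D1:**
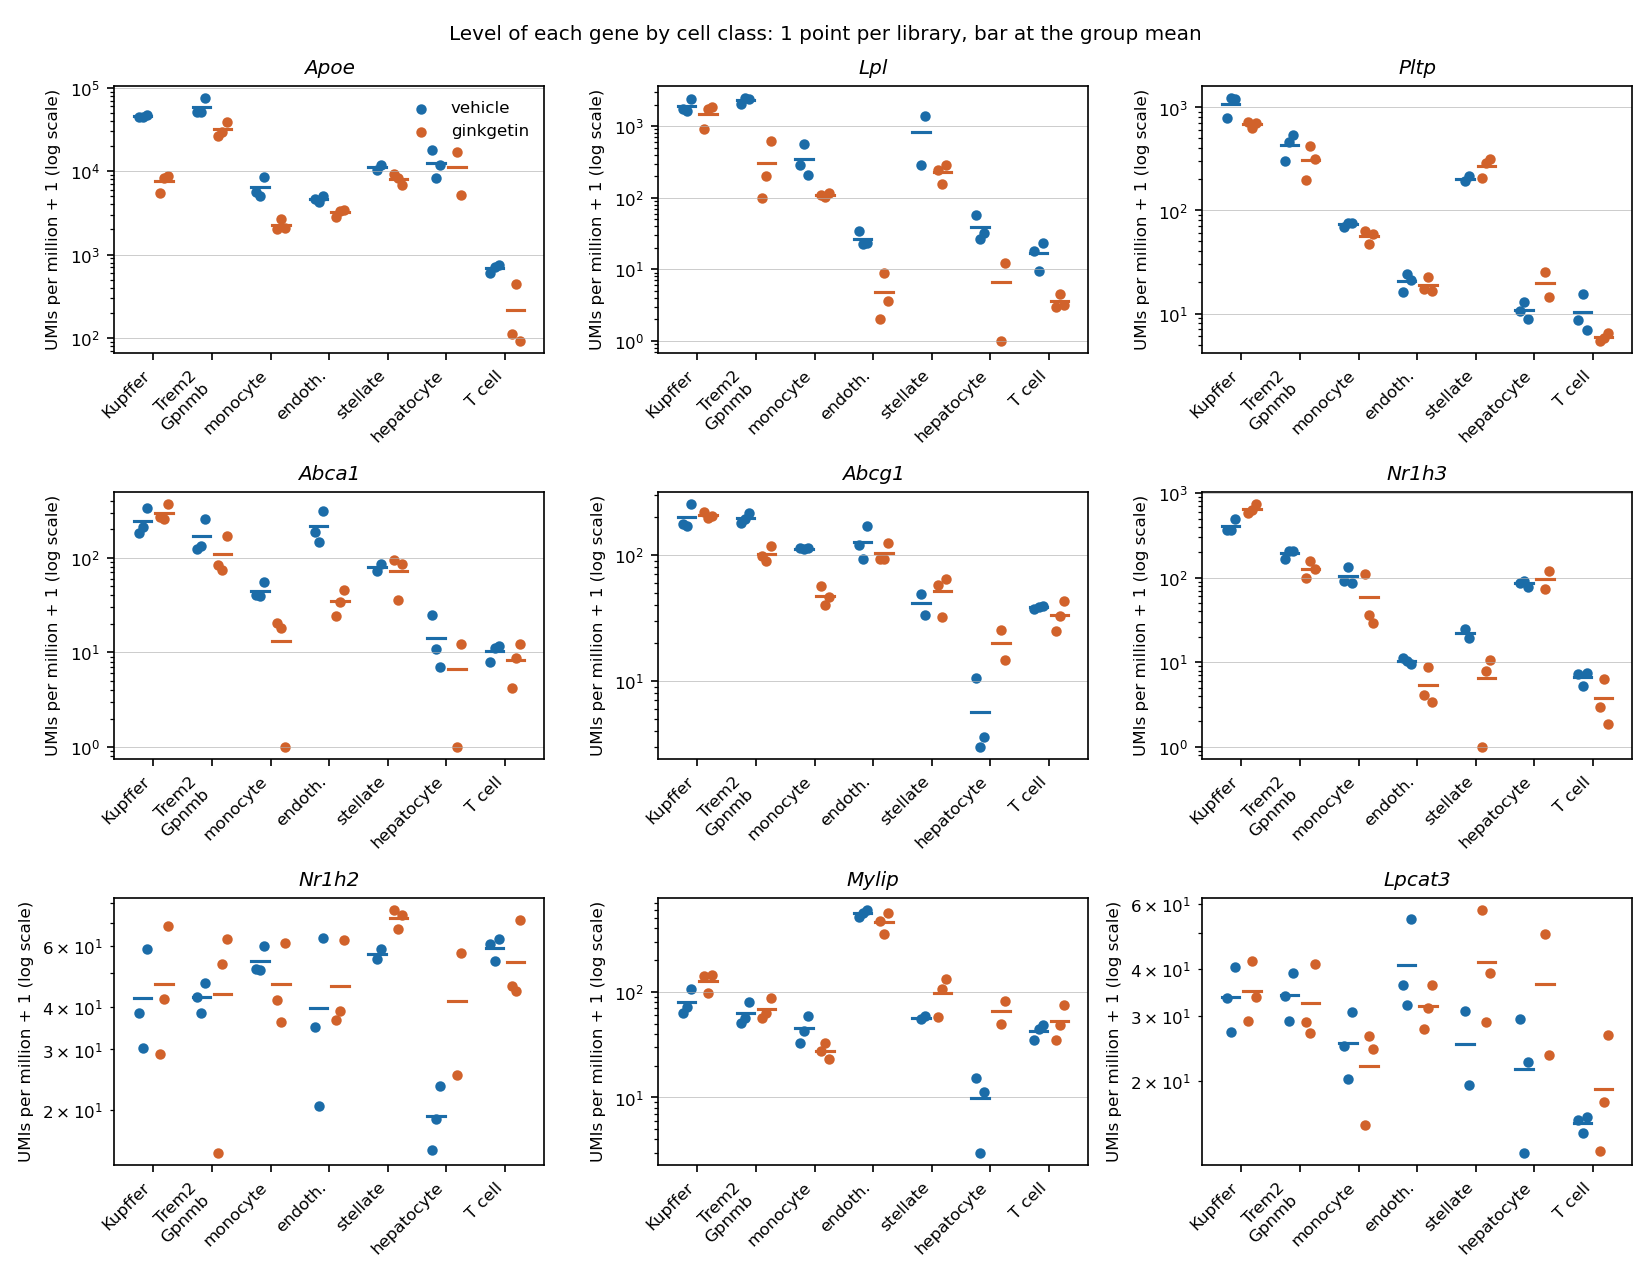
Level of each of the 9 genes (CPM + 1, log axis) in 7 cell classes, 1 point per library in blue for vehicle and orange for ginkgetin, with a bar at each group mean. Apoe points of Kupffer-like cells lie between 44820 and 47000 in vehicle and between 5550 and 8855 in ginkgetin, and Mylip stands highest in endothelial-like cells.

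Apoe was the member with the largest called difference in hepatic macrophages. In Kupffer-like cells its level was 44990, 44820 and 47000 CPM in the 3 vehicle libraries and 5550, 8373 and 8855 in the 3 ginkgetin libraries. Every ginkgetin library lay far below every vehicle library. The fit gave a log2 difference of -3.03 (SE 0.37), an 8.18-fold lower level (edgeR adjusted p = 0.0102). Over all macrophage-like cells the levels were 47070, 47490 and 63890 in vehicle and 10290, 14610 and 13530 in ginkgetin, with no overlap, and the log2 difference was -2.50 (SE 0.37, edgeR adjusted p = 0.0133). The difference was also seen in single cells. The median Kupffer-like cell held 414, 375 and 427 Apoe UMIs per 10000 in vehicle and 37.6, 60.8 and 56.2 in ginkgetin. Apoe passed the test in macrophage-like cells within replicates 1 and 2, where its log2 difference was -2.32 (edgeR adjusted p = 0.00322). The call was lost on leaving out vehicle replicate 1, vehicle replicate 2 or ginkgetin replicate 2 (edgeR adjusted p = 0.0913, 0.102 and 0.0661), with log2 differences of -2.54, -2.53 and -2.64. In Kupffer-like cells the same 3 libraries ended it (adjusted p = 0.0957, 0.0897 and 0.0804).

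Of the 9 genes, 2 were called lower in macrophage-like cells, Apoe and Lpl, and none was called higher, where a call needs an edgeR adjusted p under 0.05 and a fold over 2. The background was 10.7% of 10101 tested genes, with 5.15% lower and 5.5% higher, and the median log2 difference was -0.46 over the members and 0.02 over all genes. Lpl was at 1815, 1985 and 2366 CPM in vehicle and 729, 1270 and 1636 in ginkgetin. The groups did not overlap, but ginkgetin replicate 3 lay close to vehicle replicate 1. The log2 difference of Lpl was -1.25 (SE 0.28, edgeR adjusted p = 0.0305), and leaving out any of the 6 libraries ended the call (adjusted p 0.0516 to 0.139). With class totals as the only scaling it was -0.75 (adjusted p = 0.127). In Kupffer-like cells 2 of 9 genes were called lower, Apoe and Pltp, against a background of 9.24% of 9153 genes (4.87% lower and 4.37% higher). With the replicate number as a block the same genes were called in each class, 2 of 9 in both, where the background was 16% in macrophage-like and 15.7% in Kupffer-like cells. Pltp was at 786, 1231 and 1208 in vehicle and 721, 624 and 706 in ginkgetin, so vehicle replicate 1 lay nearest to the ginkgetin range. Its log2 difference was -1.07 (SE 0.26, edgeR adjusted p = 0.0436), which leaving out any of the 6 libraries ended (adjusted p 0.0529 to 0.183), as did scaling by class totals only (-0.64, adjusted p = 0.102).

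The other members did not pass in either class. For Abca1 the levels in Kupffer-like cells were 183, 213 and 336 in vehicle and 269, 256 and 368 in ginkgetin, overlapping ranges, with a fitted log2 difference of -0.12 (SE 0.24, edgeR adjusted p = 0.774). Abcg1 was at 174, 168 and 253 in vehicle and 220, 195 and 204 in ginkgetin (log2 difference -0.35, adjusted p = 0.319). Nr1h3 was higher in level in all ginkgetin libraries, at 577, 637 and 738 against 360, 364 and 493, yet its fitted log2 difference was 0.26 (SE 0.19, edgeR adjusted p = 0.398). Level and fit part here because the fit also scaled libraries by TMM, which centres the bulk of genes. Without TMM the median log2 difference of all genes was 0.50 in Kupffer-like cells and 0.52 in macrophage-like cells, and that of Nr1h3 in macrophage-like cells was 0.83 (adjusted p = 0.0327), short of the fold for a call. In the same way Abca1, Nr1h2 and Lpcat3 had negative fitted differences with TMM and positive ones without it in both classes, and Abcg1 in Kupffer-like cells. Mylip, Nr1h2 and Lpcat3 had fitted log2 differences in Kupffer-like cells of 0.27, -0.23 and -0.38, with edgeR adjusted p from 0.304 to 0.653.

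**Figure D2:**
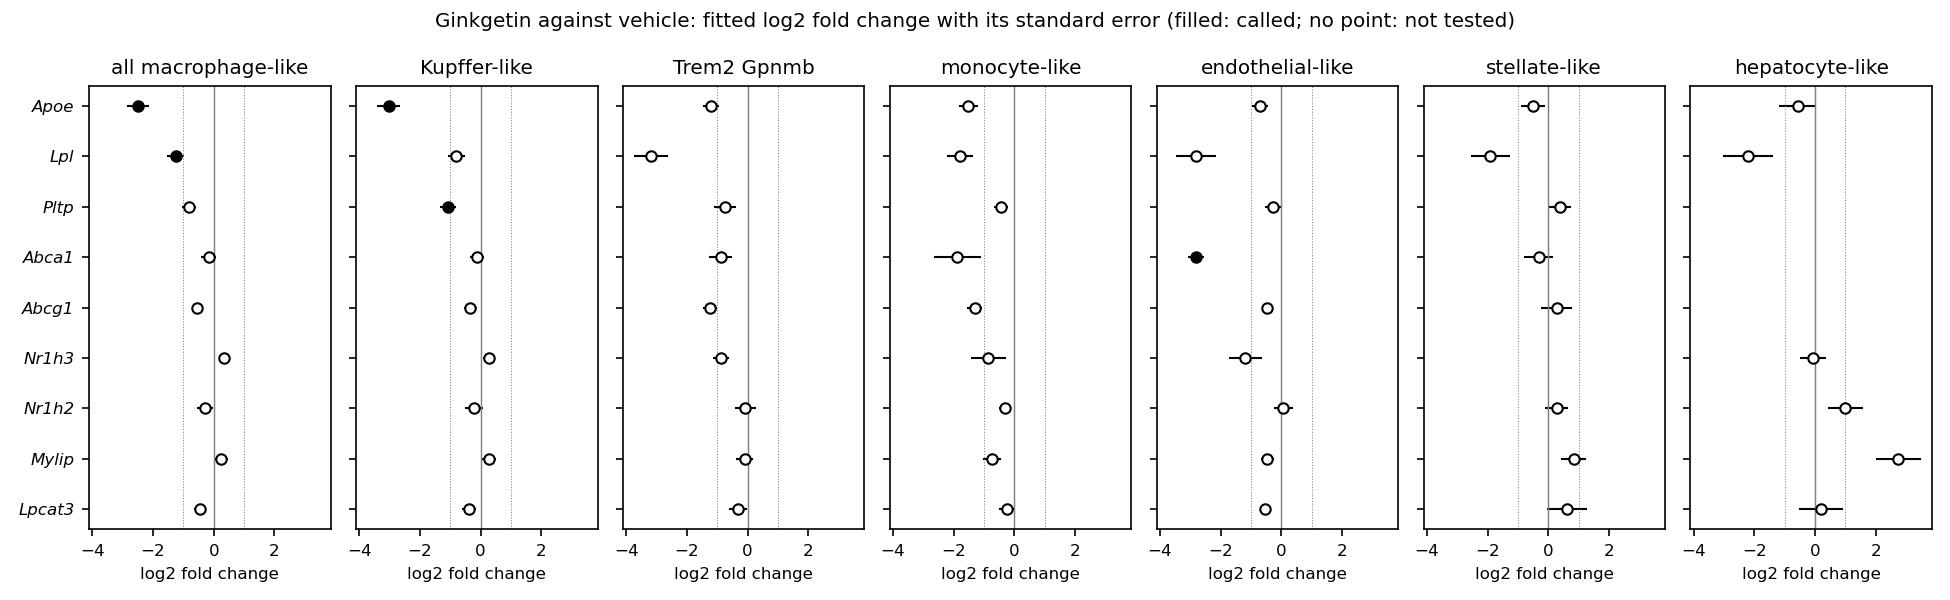
Fitted log2 fold change of ginkgetin against vehicle for each gene (rows) in 7 cell classes (panels), with its standard error, where filled points were called, open points were not, and genes without a point were not tested. Filled points stand at -2.50 for Apoe and -1.25 for Lpl in all macrophage-like cells, at -3.03 for Apoe and -1.07 for Pltp in Kupffer-like cells, and at -2.81 for Abca1 in endothelial-like cells.

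In Trem2 Gpnmb macrophage-like cells, Lpl had the lowest fitted value among members. Its level was 2006, 2456 and 2368 CPM in vehicle and 97.8, 198 and 615 in ginkgetin, with no overlap. Among cells thinned to 1000 UMIs, a UMI of Lpl was found in 62.4%, 64.8% and 63.8% of vehicle cells and in 23.1%, 12.5% and 18.9% of ginkgetin cells, the latter 3 of 13, 5 of 40 and 7 of 37 cells. The fit gave a log2 difference of -3.19 (SE 0.56, edgeR adjusted p = 0.0707). With the replicate number as a block it was -3.31 (edgeR adjusted p = 8.07e-10) and within replicates 1 and 2 it was -4.05 (adjusted p = 2.65e-05), which both passed. Apoe was at 51900, 50790 and 75380 in vehicle and 26790, 29680 and 38860 in ginkgetin, with no overlap, and a log2 difference of -1.20 (SE 0.26, edgeR adjusted p = 0.0870), called with the block (adjusted p = 7.54e-06). Abcg1 was at 180, 193 and 214 in vehicle and 97.8, 88.5 and 118 in ginkgetin, again apart, with a log2 difference of -1.24 (SE 0.23, edgeR adjusted p = 0.0770), called with the block (adjusted p = 0.00133). Thus 0 of 9 members were called without the block, where edgeR called 0.0905% of 7732 genes (0.0517% lower and 0.0388% higher), and 3 of 9 with it, where edgeR called 5.79%. At an unadjusted p under 0.05 there were 5 members and 1286 genes in all, and DESeq2 called 3 members and 285 genes (3.69%). The ginkgetin cells that carry this comparison are few and held fewer UMIs of the Trem2 Gpnmb markers, so a lower Lpl per cell and a different mix of cells under 1 name cannot be told apart.

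In monocyte-like cells Abcg1, Apoe and Lpl had the lowest p among members. Apoe was at 5664, 4998 and 8527 CPM in vehicle and 2018, 2658 and 2100 in ginkgetin. Lpl was at 289, 556 and 207 in vehicle and 107, 101 and 115 in ginkgetin, and Abcg1 at 112, 110 and 113 against 55.2, 38.8 and 45.6. None of these groups overlapped, and the vehicle libraries lay closest together for Abcg1. The 7 macrophage markers summed in the same cells to 2746 to 2910 CPM in vehicle and 1432 to 2676 in ginkgetin, and their part in these differences was not tested. Their log2 differences were -1.52, -1.80 and -1.32, with edgeR adjusted p of 0.190, 0.212 and 0.190. edgeR called 0 of 9 members and 0 of 8044 genes (background 0%), 5 members and 1112 genes had an unadjusted p under 0.05, and DESeq2 called 3 members and 132 genes (1.64%). With the replicate block these 3 members were called (edgeR adjusted p = 0.0383, 0.0384 and 0.0259), where the background was 1.44%. Within replicates 1 and 2 none was called. Abca1, at 39.6, 38.0 and 53.8 against 19.6, 17.0 and 0, was not called with or without the block.

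T cell-like cells, which are not known to make Apoe or Lpl, gave the level that free RNA may leave in any droplet. Apoe there was at 601, 702 and 747 CPM in vehicle and 111, 447 and 90.9 in ginkgetin, below the macrophage and monocyte levels in every library and lower in all ginkgetin libraries. Lpl in T cell-like cells was at 16.9, 8.48 and 22.3 in vehicle and at most 3.57 in the 3 ginkgetin libraries. The source of Apoe UMIs also shifted. Macrophage-like cells held 81.7%, 81.8% and 90.2% of all Apoe UMIs in the vehicle libraries and 13.9%, 14.7% and 36.1% in the ginkgetin libraries, while endothelial-like cells held 2.12%, 1.65% and 1.08% in vehicle and 34.2%, 39.7% and 32.0% in ginkgetin. How much free RNA adds to the difference in Apoe in each class was not tested.

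In endothelial-like cells Abca1 was the only member called, 1 of 9 against a background of 0.638% of 10030 genes (0.429% lower and 0.209% higher). Its level was 186, 145 and 310 CPM in vehicle and 23.2, 33.0 and 44.9 in ginkgetin. Every ginkgetin library was below the lowest vehicle library by a wide margin, and T cell-like cells held 3.21 to 11.3. Macrophage markers, all 7 detected in every library, summed in endothelial-like cells to 188 to 307 CPM in vehicle and 54.8 to 124 in ginkgetin. The log2 difference was -2.81 (SE 0.27), 7.04-fold lower (edgeR adjusted p = 0.0142). After thinning, 17.2%, 10.1% and 25.2% of vehicle endothelial-like cells and 2.14%, 3.09% and 5.64% of ginkgetin ones held an Abca1 UMI. The difference was -2.72 within replicates 1 and 2 (adjusted p = 0.00222) and -2.81 without cells that held 3 or more UMIs of macrophage markers (adjusted p = 0.0156). Its size stayed between -2.61 and -2.97 as each library was left out, but leaving out any 1 library other than vehicle replicate 3 ended the call (edgeR adjusted p 0.0504 to 0.195). Scaling by class totals only also ended it, at -2.66 (edgeR adjusted p = 0.0738). Endothelial subtypes were pooled in this class. The paper reports mainly peri-portal endothelial cells in vehicle and mainly sinusoidal ones after ginkgetin. The part of such a change in mix in the differences of this class, for Abca1 and for the genes below, was not tested.

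Lpl in endothelial-like cells was at 33.3, 21.8 and 22.2 in vehicle and 1.05, 7.96 and 2.64 in ginkgetin. The groups did not overlap, but these levels lay near those of Lpl in T cell-like cells, and the share of free RNA in them was not tested. The log2 difference of Lpl was -2.81 (edgeR adjusted p = 0.137), called with the replicate block (adjusted p = 0.00709, background 4.44%). Apoe was at 4699, 4236 and 5095 in vehicle and 2859, 3375 and 3464 in ginkgetin, with no overlap and a log2 difference of -0.70 (edgeR adjusted p = 0.308). Mylip, at 517, 554 and 595 against 466, 352 and 557, overlapped between groups, with a log2 difference of -0.46 (adjusted p = 0.402). Abcg1 and Lpcat3 had log2 differences of -0.46 and -0.53 (edgeR adjusted p = 0.316 and 0.216). Nr1h3 was at 2.36 to 10.2 over the 6 libraries, near its T cell-like level of 0.88 to 6.43.

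The genes around Abca1 in endothelial-like cells were read from fixed lists. Of 9 partners and co-regulators of LXR and of 10 tested of 14 other LXR target genes, none was called by edgeR, with Rxra (0.62), Cd5l (-2.12) and Mertk (0.82) at the lowest p. With the replicate block Cd5l was called (-2.13, edgeR adjusted p = 0.00500). Macrophage markers were also lower in ginkgetin in these cells, as given above, and the share of free RNA in the Cd5l values was not tested. Ch25h, which makes the LXR ligand 25-hydroxycholesterol, was the 1 of 3 tested oxysterol genes called lower, from 45.8, 29.6 and 56.8 to 3.86, 1.44 and 2.78. Angptl4, an inhibitor of lipoprotein lipase, fell from 14.8, 9.34 and 17.7 (45, 12 and 48 UMIs) to 0.351, 0.391 and 0.972 (1, 3 and 7 UMIs), the 1 called of 5 tested partners of lipoprotein lipase and high-density lipoprotein. The log2 differences of Ch25h and Angptl4 were -4.27 (SE 0.40) and -4.67 (SE 0.40), and both had an edgeR adjusted p of 0.0142. Neither overlapped between groups, and both passed with class totals as the only scaling. Leaving out any 1 library ended the calls of Ch25h and Angptl4 (adjusted p 0.0504 to 0.195).

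**Figure D3:**
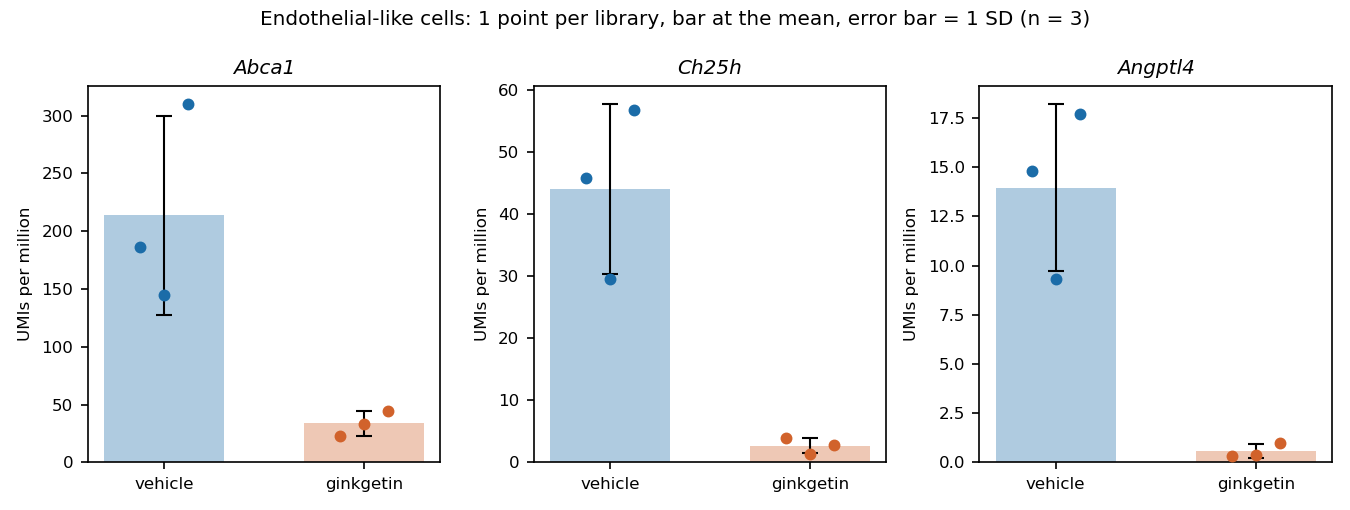
Level of Abca1, Ch25h and Angptl4 in endothelial-like cells (CPM, linear axes from 0), with 1 point per library, bars at group means and error bars of 1 SD (n = 3). Abca1 points lie at 145 to 310 in vehicle and 23.2 to 44.9 in ginkgetin, and Ch25h and Angptl4 are also lower in all ginkgetin libraries.

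Whether the changes of the members differed between macrophages and endothelium was tested directly. In a fit of both classes with library as a term, the change of Abca1 was more positive in macrophage-like than in endothelial-like cells by 2.60 on the log2 scale (SE 0.24, edgeR adjusted p = 0.000151). For Apoe it was more negative in macrophage-like cells, at -1.83 (SE 0.34, adjusted p = 0.00485). These were 2 of 9 members, against a background of 10.9% of 11192 genes (3.81% more negative and 7.05% more positive in macrophage-like cells). Both passed as each library was left out in turn and within replicates 1 and 2. Without cells that held 3 or more UMIs of the other class's markers, Apoe was at -1.65 (edgeR adjusted p = 0.0626) and Abca1 at 2.65 (adjusted p = 1.77e-05). Nr1h3 and Lpl were at 1.58 and 1.70 (adjusted p = 0.0501 and 0.0508). The oxysterol gene Ch25h (5.76) passed the same test, where Ch25h in macrophage-like cells was at 1.29, 1.24 and 1.38 in vehicle and 12.5, 6.11 and 2.88 in ginkgetin, on 4, 4 and 6 UMIs.

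The surrounding pathway in macrophage-like cells is read beside the background of 10.7% of genes called there (9.24% in Kupffer-like cells). Rxra, the usual partner of LXR, rose from 43.0, 64.1 and 81.1 CPM to values of 187 to 264, with a log2 difference of 1.33 (SE 0.23, edgeR adjusted p = 0.0179), and was the 1 of 9 partners and co-regulators called. Cd36, a scavenger receptor for oxidised lipoproteins and fatty acids, fell from 413, 320.2 and 348 to 140.1, 124 and 246 (log2 difference -1.58, adjusted p = 0.0165), 1 of 11 tested genes of uptake and handling. Angptl4 fell from 19.0, 11.6 and 16.2 to 3.11, 3.05 and 4.80 (log2 difference -2.50, adjusted p = 0.0122). Each of these calls was lost on leaving out some single libraries. That of Rxra held only without vehicle replicate 3 (edgeR adjusted p 0.0533 to 0.113 without any other), that of Cd36 only without vehicle replicate 3 or ginkgetin replicate 3 (0.0544 to 0.107 otherwise), and that of Angptl4 ended without replicate 1 or 2 of vehicle or replicate 2 of ginkgetin (0.0638 to 0.102). None of 10 tested other LXR targets was called by edgeR, with Scd1 (-0.64) and Scd2 (-0.63) at the lowest p, and none of 2 oxysterol genes, Cyp27a1 (-0.84) and Ch25h (1.65). Cd36 (-1.52), Cyp27a1 (-1.10) and Angptl4 (-2.35) were called lower in Kupffer-like cells, where Rxra (1.06) had an edgeR adjusted p of 0.0518, and of 0.00227 with the replicate block. The Kupffer-like calls of Angptl4 and Cyp27a1 held only without vehicle replicate 3 (edgeR adjusted p 0.0521 to 0.121 and 0.0588 to 0.196 without any other), and that of Cd36 only without replicate 3 of either group (0.0517 to 0.116 otherwise).

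Of the same lists, no gene was called by edgeR without a block in Trem2 Gpnmb macrophage-like, monocyte-like, stellate-like or hepatocyte-like cells, and the replicate block changed this in all 4 classes. In Trem2 Gpnmb macrophage-like cells the genes at the lowest p were Rxra (1.05), Tbl1xr1 (0.72), Cd5l (-3.26), Scd1 (-2.59), Cd36 (-2.20), Npc2 (-0.75), Ch25h (3.48), Cyp27a1 (0.23), Gpihbp1 (2.39) and Angptl4 (-2.08), with edgeR adjusted p of 0.0707 or more. Among these genes the block gave calls for Cd5l (-3.42, edgeR adjusted p = 1.35e-09), Cd36 (-2.13, 4.15e-05), Ch25h (3.504, 0.000171), Gpihbp1 (2.36, 0.000489) and Scd1 (-2.92, 0.00136), and DESeq2 called the first 4 of them. Ch25h rested on few ginkgetin UMIs, at most those given above for all macrophage-like cells. As each library was left out, Ch25h passed the gene filter in only 3 fits and was called in none. Cd5l was also called without vehicle replicate 3 (-2.88, edgeR adjusted p = 0.0463). In monocyte-like cells they were Tbl1xr1 (0.69), Rxra (1.04), Cd5l (-1.82), Apoc1 (-0.87), Lipa (-0.62), Cyp27a1 (0.36), Gpihbp1 (1.94) and Apoa1 (-1.17), from 0.242 upwards, and Cd5l was called with the block (-1.86, edgeR adjusted p = 0.0285). The share of free RNA in Cd5l of monocyte-like cells was not tested. In stellate-like and hepatocyte-like cells the block rested on replicates 2 and 3 of both groups, as 1 library of each class had too few cells. In stellate-like cells the block gave calls for Angptl4 (-2.65, edgeR adjusted p = 1.27e-05) and Npc2 (-1.41, 0.0462). In hepatocyte-like cells it did so for Apob (2.40, edgeR adjusted p = 0.0245), Cd36 (2.39, 0.0260) and the scavenger receptor gene Msr1 (3.19, 0.00957), and Apob was also called without vehicle replicate 3 (3.32, edgeR adjusted p = 0.0384). These values rested on 12 and 185 ginkgetin cells. Endothelial markers were higher in those cells than in vehicle ones, as given below, and their part in these differences was not tested. Gpihbp1, the endothelial anchor of lipoprotein lipase, is itself a gene of endothelium. Endothelial markers summed to 49.4 to 76.8 CPM in vehicle and 167 to 1010 in ginkgetin in Trem2 Gpnmb macrophage-like cells, and to 38.8 to 62.5 and 105 to 861 in monocyte-like cells.

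Stellate-like and hepatocyte-like cells were few, and 1 library of each fell below the 10 cells needed. These were vehicle replicate 1 and ginkgetin replicate 1, so the replicate block there rested on replicates 2 and 3 of both groups. In stellate-like cells (24 and 38 vehicle cells, 12, 65 and 36 ginkgetin cells) edgeR called 0 of 8 tested members and 0.0194% of 5157 genes, 1 member and 352 genes had an unadjusted p under 0.05, and DESeq2 called 0 members and 17 genes (0.330%). Lpl was at 282 and 1372 in vehicle and 245, 154 and 289 in ginkgetin, so the groups overlapped and the log2 difference of -1.92 rested on vehicle replicate 3, without which it was -0.46. It was called with the replicate block (edgeR adjusted p = 0.618 without and 0.0286 with it, background 3.39%). Apoe was at 10390 and 11920 in vehicle and 9375, 8292 and 6873 in ginkgetin (log2 difference -0.51, adjusted p = 0.868). In hepatocyte-like cells (45, 105 and 226 vehicle cells, 12 and 185 ginkgetin cells) edgeR called 0 of 6 tested members and 0% of 5132 genes, 2 members and 1134 genes had an unadjusted p under 0.05, and DESeq2 called 0 members and 144 genes (2.81%). Mylip was at 14.2, 1.98 and 10.4 in vehicle and 48.6 and 81.4 in ginkgetin, with a log2 difference of 2.74 (edgeR adjusted p = 0.148, and 0.0162 with the block, background 7.58%). The 8 endothelial markers summed in the same cells to 37.6 to 215 CPM in vehicle and 2113 and 2500 in ginkgetin, and Mylip was highest in endothelium. The part of these markers in the differences of Mylip, Cd36 and Msr1 was not tested.

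Members were also measured as shares of cells with a UMI. Cells were thinned to 1000 UMIs each, and groups were compared with a two-sided exact permutation test over libraries, which cannot go below 0.10 with 3 against 3. In macrophage-like cells a UMI of Nr1h3 was found in 24.9%, 27.7% and 25.9% of vehicle cells and 45.1%, 41.6% and 49.4% of ginkgetin cells, with no overlap (exact permutation p = 0.1). Kupffer-like cells, in which Nr1h3 was highest, were 710, 434 and 396 of the vehicle and 89, 197 and 509 of the ginkgetin macrophage-like cells. Within Kupffer-like cells the shares were 30.6%, 33.4% and 38.8% in vehicle and 51.7%, 47.2% and 53.4% in ginkgetin, also apart (exact permutation p = 0.1). Without thinning the order over all macrophage-like cells was the opposite, 78.4% ± 3.55 against 68.5% ± 5.12 (SD, n = 3), as it was in Kupffer-like cells, 87.3% ± 6.90 against 73.4% ± 2.61, beside the deeper vehicle cells. Thinning sets every cell to the same total, without the TMM scaling of the fit. Without TMM the median log2 difference of all genes in macrophage-like cells was 0.52. With TMM the fitted log2 difference of Nr1h3 there was 0.35 (edgeR adjusted p = 0.218). Thinned shares of Abca1, Abcg1, Nr1h2, Mylip and Lpcat3 were also higher in ginkgetin macrophage-like cells. In Trem2 Gpnmb macrophage-like cells Nr1h3 ran the other way, 17.6% ± 1.27 in vehicle and 5.90% ± 7.99 in ginkgetin (exact permutation p = 0.1), on 0 of 13 (exact 95% interval up to 24.7%), 6 of 40 and 1 of 37 ginkgetin cells. Apoe was present in nearly all macrophage-like cells of both groups (99.7% ± 0.375 and 97.2% ± 2.81), a share too near its upper limit to show a difference. The T cell-like shares of Nr1h3 were 0.616% and 0.347%, those of Abca1 0.577% and 0.757%, and those of Apoe 49.4% and 19.4%, the level read as background.

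**Figure D4:**
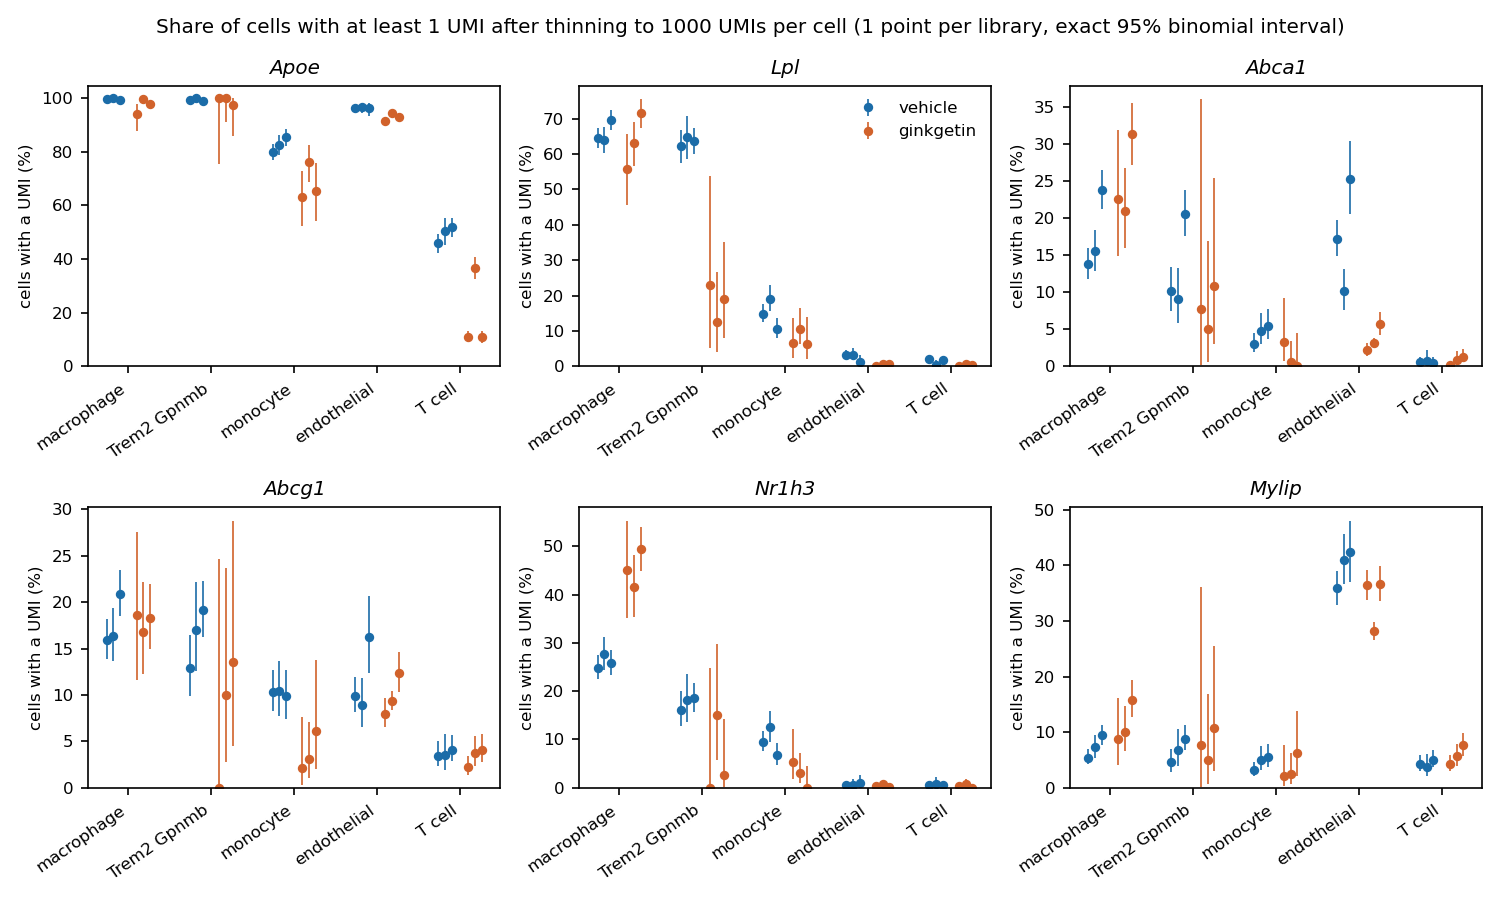
Share of cells (%) with at least 1 UMI of 6 genes after thinning to 1000 UMIs per cell, in 5 cell classes, with 1 point per library (blue vehicle, orange ginkgetin) and exact 95% binomial intervals, which cover counting error only. Nr1h3 in macrophage-like cells lies at 24.9% to 27.7% in vehicle and 41.6% to 49.4% in ginkgetin, Lpl in Trem2 Gpnmb macrophage-like cells at 62.4% or more against 23.1% or less, and T cell-like cells show the background.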

How the data were processed

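Single-cell RNA sequencing libraries of LNPC (3 vehicle, 3 ginkgetin) were analysed. The authors deposited raw UMI counts per gene and cell, 1 table per library. The submitters' processing notes name GRCm38 and mm10, and the aligner and annotation are not given in the sources used here. The extract protocol names bulk RNA kits, while the description names 10X Genomics. Cells with 250 to 5000 genes and under 5% mitochondrial UMIs were kept, the range that the study states for UMIs, read here as genes, and no cells were removed as doublets, which was an alternative.

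The 9 members and all lists were chosen with earlier results of these data known. Members and pathway genes were left out of clustering (scanpy 1.11.5, 2000 variable genes, 30 components, resolution 2), and classes were named from marker lists. UMI counts were summed per library and class, where a library had 10 or more cells, scaled by TMM, filtered by filterByExpr and tested over all genes with edgeR 4.0.16 (quasi-likelihood, R 4.3.3) with Benjamini-Hochberg adjustment. Calls needed an adjusted p under 0.05 and a fold over 2. Levels are in CPM. Shares were compared by exact permutation (scipy 1.17.1), and their intervals are exact binomial ones, for counting error only. The edgeR fit without a block was tested on simulated sums of macrophage-like cells, and the other steps were not tested on simulated data. Text names the 9 members, every called pathway gene or, where a list had none, its 2 genes at the lowest p, and the 3 genes most correlated with each member. Some genes that this rule names are not reported here.

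Same-numbered libraries of both groups deviated together from their group means (correlations over genes of 0.404, 0.448 and 0.801 in macrophage-like and 0.680, 0.629 and 0.905 in endothelial-like cells, and above 0.1 in all 5 classes with 6 libraries), so the replicate number was also fitted as a block. The labels give no shared animal, and replicates 1 and 2 correlated about as well with each other's number, and better with it than with their own in endothelial-like vehicle replicate 2 (0.659 against 0.629) and Trem2 Gpnmb macrophage-like vehicle replicate 1 (0.268 against 0.249). Alternatives were RLE factors, class totals only, DESeq2 1.42.0, no gene filter, a block by replicate or barcode set, replicates 1 and 2 only, each library left out, the UMI reading of the range, doublet scores, other clusterings, and cells left out that held 3 or more UMIs of other-class markers (endothelial markers in macrophages and monocytes, macrophage markers in endothelial-like, stellate-like and hepatocyte-like cells), the totals and marker alternatives being chosen after seeing the data.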

Additional observations from a re-analysis of the deposited data

Results flagged for a closer look

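The change under ginkgetin of 2 members differed between macrophage-like and endothelial-like cells in a direct test, with library as a term (edgeR quasi-likelihood, adjusted over all genes). For Abca1 the change was more positive in macrophage-like cells by 2.60 on the log2 scale (SE 0.24, edgeR adjusted p = 0.000151), with a fitted change of -0.17 in macrophage-like and -2.81 in endothelial-like cells. For Apoe it was more negative in macrophage-like cells, at -1.83 (SE 0.34, edgeR adjusted p = 0.00485), with fitted changes of -2.50 and -0.70. For Apoe in both classes and for Abca1 in endothelial-like cells, levels in the 3 ginkgetin libraries were under the lowest vehicle level. Abca1 levels overlapped between groups in Kupffer-like cells. These genes were picked because they passed the test in the same libraries, so the gaps add no separate support. The share of all genes with such a gap is not given here. No member level was tested for a library far from the others, with 3 libraries per group.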

How the results depend on the processing

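The limits of these results are the small number of libraries and the few ginkgetin macrophages. Of 2407 values under an alternative, 2061 kept their direction and side of the threshold, 118 lost and 110 gained a call, 69 reversed and 49 values or counts moved; apart from the members named in the report, the replicate block changed no other call of a member. The share of all genes called moved as well and is given in brackets after each count of members. DESeq2, the replicate block and the barcode-set block each gave 3 called members in Trem2 Gpnmb macrophage-like (3.69%, 5.79% and 5.79%) and in monocyte-like cells (1.64%, 1.44% and 1.93%) and 2 in endothelial-like cells (3.13%, 4.44% and 4.74%). The replicate and barcode-set blocks gave 1 in stellate-like (3.39% and 3.06%) and 1 in hepatocyte-like cells (7.58% and 7.19%). Replicates 1 and 2 alone gave 1 in Kupffer-like (13.5%), 3 in Trem2 Gpnmb macrophage-like (2.51%) and 2 in endothelial-like cells (3.49%). Class totals only gave 1 in macrophage-like (17.2%) and in Kupffer-like (14.4%) and 0 in endothelial-like cells (0.219%). No gene filter gave 1 each in Kupffer-like (3.89%), Trem2 Gpnmb macrophage-like (0.271%) and stellate-like cells (0.724%), the UMI reading of the cell range 1 each in macrophage-like (2.55%) and Kupffer-like cells (1.59%), and leaving out cells with markers of another class 1 in Kupffer-like cells (9.72%). Leaving out 1 library gave 0 to 1 in macrophage-like (0% to 12.5%), Kupffer-like (0% to 13.4%), Trem2 Gpnmb macrophage-like (0% to 2.75%) and endothelial-like cells (0% to 0.117%). The cause of these moves was not tested.

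Reversed log2 differences with class totals only were 0.30 for Abca1, 0.23 for Nr1h2 and 0.0317 for Lpcat3 in macrophage-like cells, 0.30 for Abca1, 0.0650 for Abcg1, 0.23 for Nr1h2 and 0.0735 for Lpcat3 in Kupffer-like cells, 0.24 for Nr1h2, 0.21 for Mylip and 0.00301 for Lpcat3 in Trem2 Gpnmb macrophage-like cells and 0.34 for Nr1h3 in hepatocyte-like cells, where the median of all genes shifted by up to 0.52. The UMI reading gave 0.16 for Abca1 and 0.24 for Lpcat3 in macrophage-like cells, 0.0304 for Abca1, 0.37 for Nr1h2 and 0.0087 for Lpcat3 in Kupffer-like cells and 0.69 for Nr1h3 in hepatocyte-like cells. Cells with markers of another class left out gave 0.18 for Scd1 in macrophage-like, 0.0449 for Abca1 and 0.0236 for Nr1h2 in Kupffer-like, 0.0615 for Lpcat3 in Trem2 Gpnmb macrophage-like and 0.0526 for Nr1h3 in hepatocyte-like cells. Replicates 1 and 2 alone gave 0.14 for Apoa1 in monocyte-like, -0.0633 for Rxra in stellate-like and 0.33 for Apoe in hepatocyte-like cells. In hepatocyte-like cells Nr1h3 was at 0.0175 by DESeq2, 0.0293 and 0.0480 with the replicate and barcode-set blocks, 0.36 without high doublet scores, 0.26 with each barcode set clustered alone and 0.27 with all genes in the clustering, Apoe at 0.24 without high doublet scores and Lpcat3 at -0.16 with no gene filter.

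As each library was left out, log2 differences ran from -0.33 to 0.0733 for Abca1 in macrophage-like and -0.27 to 0.0409 in Kupffer-like cells, -0.39 to 0.16 for Nr1h2 and -0.34 to 0.26 for Mylip in Trem2 Gpnmb macrophage-like cells, -0.19 to 0.40 for Nr1h2 in endothelial-like cells, -0.12 to 0.60 for Abcg1, -0.70 to 0.10 for Abca1, -0.0253 to 0.97 for Cyp27a1 and -0.17 to 2.06 for Scarb1 in stellate-like cells, and -0.45 to 0.21 for Nr1h3, -0.30 to 1.03 for Lpcat3, -1.78 to 0.19 for Apoe and -0.17 to 1.67 for Ncor1 in hepatocyte-like cells. The differences between macrophage-like and endothelial-like cells ran from 1.12 to 2.67 for Lpl, 0.49 to 0.72 for Mylip, 0.99 to 2.42 for Nr1h3 and -0.20 to 0.11 for Lpcat3. They passed for Lpl at 1.70 and Nr1h3 at 1.59 with RLE factors, for Lpl at 2.01, Nr1h3 at 1.91 and Mylip at 0.99 with class totals only (Abcg1 reversed to 0.19), for Lpl at 1.29 and Mylip at 0.84 in replicates 1 and 2, and for Nr1h3 at 1.71 without cells holding markers of another class, where Apoe at -1.65 no longer passed.

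Differences in shares of cells, in percentage points, reversed without thinning to -22.3 for Abca1, -34.8 for Abcg1, -9.84 for Nr1h3, -23.0 for Nr1h2, -17.0 for Mylip and -19.8 for Lpcat3 in macrophage-like cells, -8.08 for Mylip in Trem2 Gpnmb macrophage-like, -5.02 for Nr1h2 in monocyte-like, and -0.938 for Pltp and -0.623 for Nr1h2 in endothelial-like cells. Median UMIs per cell were lower in every ginkgetin library in macrophage-like and Trem2 Gpnmb macrophage-like cells. They overlapped between groups in monocyte-like and endothelial-like cells. In replicates 1 and 2 alone the differences in shares were 0.345 for Apoe in Trem2 Gpnmb macrophage-like, 0.557 for Pltp in monocyte-like, and -0.042 for Pltp and 0.028 for Lpcat3 in endothelial-like cells. Taken as a mean over cells, vehicle levels were 43980 for Apoe in Kupffer-like, 1927 for Lpl in Trem2 Gpnmb macrophage-like, 114 for Abcg1 in monocyte-like, and 65.7 for Nr1h2 and 47.2 for Mylip in stellate-like cells. The UMI reading could not be fitted in Trem2 Gpnmb macrophage-like and stellate-like cells, nor the doublet setting in stellate-like cells.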

Other observations

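Some member levels belong to classes that no comparison above used. Cholangiocyte-like cells held Apoe at 17000, 15300 and 13070 CPM in vehicle and 16290, 14400 and 14450 in ginkgetin, overlapping ranges. Abca1 in the same cells was at 29.0, 19.7 and 30.5 in vehicle and 1.91, 9.43 and 2.94 in ginkgetin, with no overlap. Plasmacytoid dendritic-like cells held Pltp at 420.5, 435 and 399.5 in vehicle and 285, 348 and 534 in ginkgetin. No test was run on these classes.

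For each member, the 3 genes whose log2(level + 1) correlated best with it were found over 87 sums of 15 classes and 6 libraries, points that share libraries, depth and free RNA. Apoe ran with Tgm2 (Pearson r = 0.83), Lamp1 and Prdx1, Lpl with Itgb5 (0.86), Axl and Lrp1, and Pltp with Zeb2os (0.80), Zeb2 and Ctsa. Nr1h3 ran with Hpgd (0.83) and Ninj1, and Nr1h2 with Nipbl (0.71), Ppp1r12a and Yipf1. Abca1 ran with Mertk (0.70), Gbp3 and Axl, Abcg1 with Sh3glb1 (0.76), Casp1 and Ap1s2, Mylip with Il4ra (0.75), Ttc7b and Klf2, and Lpcat3 with Tsen34 (0.80), Kifc3 and Sqstm1.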
